A study of Mus musculus with 8 samples.

Results

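The data on 10 genes of the VEGF and angiopoietin systems were examined in the mouse hippocampus: the receptors Tie1, Tek, Kdr, Flt1 and Flt4 and the ligands Angpt1, Angpt2, Vegfa, Vegfb and Vegfc. They are 10 of the 24421 genes in the count tables, chosen by name with their levels in all 4 groups already known, so their levels and differences between groups are given as a description and are no independent support for any pattern. All 10 passed the filter on low counts in every comparison. Hippocampal RNA came from wildtype C57BL/6J mice labelled male, at postnatal day 3 and week 8. IUGR offspring were born to dams injected with dexamethasone at 1 mg/kg per day intraperitoneally for 5 days from 14.5 days post coitum. NS offspring were born to dams given saline, and each combination of treatment and age had 2 libraries, 8 in total. The exposure was prenatal in each IUGR animal, and the labels do not say whether the 2 libraries of a group came from separate animals or litters, so p-values measure only the spread between these libraries.

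Vascular endothelial growth factors and angiopoietins are secreted ligands that steer the growth, permeability and stability of blood vessels through receptor tyrosine kinases carried mainly by endothelial cells. Vegfa signals chiefly through Kdr, whereas Flt1 binds Vegfa and Vegfb tightly, signals weakly and can act as a decoy, and Flt4 is the receptor of Vegfc. Angpt1 activates Tek, Angpt2 opposes or mimics it depending on context, and Tie1 is a partner of Tek without a well established ligand of its own. In brain, Vegfa is made largely by glia and neurons and Angpt1 by perivascular cells.

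Total counts ran from 13030277 to 18993050 per library, and each library held 17434 to 18593 genes with a count. Both postnatal day 3 replicate 2 libraries carried Xist, with 4998 counts for NS and 5130 for IUGR, and only 34 and 74 counts summed over 4 Y-linked genes, against 2023 to 5364 Y-linked counts in the other 6 libraries. This goes against the male label of those libraries. Rpph1, a noncoding RNA gene, had 0 and 2 counts in the NS and IUGR week 8 replicate 2 libraries and 872768 to 1119905 in the others. Levels are given as CPM, a gene's counts per 1000000 counts of its library. Summed CPM of 13 choroid plexus markers reached 8888 in NS week 8 replicate 1 and lay at 204 to 352 in the other week 8 libraries, and ran from 160 to 6650 at postnatal day 3. Neuronal markers summed to 3289 to 6066 CPM and 10 hippocampal field markers to 529 to 1102 CPM across the libraries, so neuronal and hippocampal transcripts were present throughout.

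The promoters of 4 of the 5 receptor genes are shown because these receptors were lower in both IUGR libraries than in both NS libraries at week 8. Sequences are from RefSeq on GRCm38.p6, 5′ to 3′ on the gene's strand, and cover the 250 bases before the start, leaving out bases inside the annotated gene body, which leaves none for Flt4. Of the members, 8 of 10 matched an entry in the RefSeq table. Capitals mark CGGAAG or AGGAAG, the core read by ETS factors, searched on both strands. Shown are the Flt1 window at chr5:147726012-147726261 (minus strand), the Tie1 stretch at chr4:118490062-118490099 (minus strand), the Kdr window at chr5:75978459-75978705 (minus strand) and the Tek window at chr4:94739039-94739288 (plus strand).
Flt1: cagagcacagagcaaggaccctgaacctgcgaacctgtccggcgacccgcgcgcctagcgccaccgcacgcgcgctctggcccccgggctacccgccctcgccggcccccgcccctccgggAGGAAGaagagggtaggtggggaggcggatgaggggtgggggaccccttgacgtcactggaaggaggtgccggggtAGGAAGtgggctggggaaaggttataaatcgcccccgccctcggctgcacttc
Tie1: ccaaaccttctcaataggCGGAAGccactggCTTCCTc
Kdr: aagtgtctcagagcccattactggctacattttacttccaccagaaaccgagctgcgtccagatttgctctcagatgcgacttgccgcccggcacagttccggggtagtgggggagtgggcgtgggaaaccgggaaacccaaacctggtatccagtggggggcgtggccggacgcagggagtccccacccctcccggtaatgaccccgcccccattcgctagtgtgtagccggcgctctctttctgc
Tek: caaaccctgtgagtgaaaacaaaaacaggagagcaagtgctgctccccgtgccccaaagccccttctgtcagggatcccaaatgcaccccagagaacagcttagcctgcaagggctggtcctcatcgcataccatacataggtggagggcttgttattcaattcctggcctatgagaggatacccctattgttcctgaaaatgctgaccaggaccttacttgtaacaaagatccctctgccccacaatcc
The Flt1 window held 2 matches and the Tie1 stretch 2, while the letters were not in the Kdr or Tek windows. A match stood in 39.2% of all 32851 promoter windows of 250 bases, so it is common. The other motifs searched on both strands were TATAAA (12.4% of windows), GGGCGG (32.7%) and ACGTG (16.6%). Of these, the Flt1 window held TATAAA once and GGGCGG 3 times and the Kdr window held GGGCGG 2 times. These matches are descriptions of the letters and not binding sites.

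The receptors were described first. Tie1 (chr4:118471191-118490061, minus strand, GRCm38, GENCODE M21), the orphan partner of Tek, was found at 5.83 and 7.79 CPM in the NS week 8 libraries (76 and 148 counts) and at 1.42 and 2.19 CPM in the IUGR ones (21 and 32 counts). Both IUGR libraries were below both NS libraries, with group means of 6.81 ± 1.39 and 1.81 ± 0.547 CPM (SD, n = 2), a 3.77-fold ratio of means. The edgeR log2 fold change of IUGR over NS was -1.85 ± 0.521 (SE, n = 2 per group). Tie1 at postnatal day 3 was 6.53 and 5.31 CPM with NS, against 4.14 and 4.35 CPM with IUGR, again without overlap but closer together, and its log2 fold change was -0.48 ± 0.247. Compared between libraries of the same replicate number, the week 8 log2 ratio was -2.04 in replicate 1 and -1.83 in replicate 2. The 95% exact binomial (Clopper-Pearson) intervals of the week 8 Tie1 levels ran from 4.60 to 9.15 CPM over the NS libraries and from 0.879 to 3.10 CPM over the IUGR libraries, which cover counting error only.

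Tek (chr4:94739289-94874976, plus strand), the receptor of the angiopoietins, had week 8 levels of 7.52 and 7.74 CPM for NS and 4.73 and 2.40 CPM for IUGR. The IUGR libraries were both lower, and IUGR replicate 2 was the lowest of the 8 libraries. Its log2 fold change was -1.03 ± 0.529 at week 8. The Tek levels overlapped at postnatal day 3, being 5.85 and 7.37 CPM for NS against 4.99 and 5.90 CPM for IUGR, with a log2 fold change of -0.28 ± 0.239. Per kilobase of gene length, the ratio of Tie1 to Tek was 0.364 in IUGR week 8 replicate 1 and between 0.874 and 1.35 in the other 7 libraries. The lower Tie1 relative to Tek was therefore a feature of 1 library, since IUGR week 8 replicate 2 stood at 1.11.

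Kdr (chr5:75932827-75978458, minus strand), the main signalling receptor of Vegfa, had 13.6 and 11.0 CPM in the NS week 8 libraries against 7.03 and 6.38 CPM in the IUGR ones. The postnatal day 3 levels were 17.7 and 21.1 CPM for NS and 14.7 CPM in each IUGR library. IUGR libraries were below NS libraries at both ages. The log2 fold change was -0.81 ± 0.384 at week 8 and -0.41 ± 0.159 at postnatal day 3.

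Flt1 (chr5:147561604-147726011, minus strand), the receptor that can trap Vegfa, had 18.9 and 20.3 CPM in the NS week 8 libraries against 9.81 and 5.49 CPM in the IUGR ones. The week 8 groups did not overlap, and the log2 fold change was -1.29 ± 0.45. Its postnatal day 3 levels overlapped, all between 3.58 and 4.74 CPM, with a log2 fold change of -0.0018 ± 0.272. Flt4 (chr11:49609263-49652739, plus strand), the Vegfc receptor, had the lowest mean CPM of the members in each of the 4 groups, at 12 to 17 counts per library at postnatal day 3. Its week 8 counts were 13 and 47 for NS against 6 and 11 for IUGR, equal to 0.998 and 2.48 CPM against 0.406 and 0.754 CPM. The IUGR libraries were both lower, with a log2 fold change of -1.52 ± 0.815.

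Among the ligands, Vegfa (chr17:46016993-46032369, minus strand) had the highest mean CPM at week 8. NS had 44.5 and 68.6 CPM against 39.2 and 41.9 CPM for IUGR at that age, and at postnatal day 3 NS had 36.3 and 33.1 CPM against 30.8 and 29.4 CPM. The IUGR libraries were below the NS libraries at both ages, by log2 fold changes of -0.42 ± 0.349 and -0.21 ± 0.125. With library totals scaled by TMM, an adjustment for composition, the week 8 Vegfa levels overlapped.

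Vegfb (chr19:6982473-6987651, minus strand), a ligand of Flt1, had 19.7 and 60.2 CPM in the NS week 8 libraries against 20.5 and 60.1 CPM in the IUGR ones. Its level followed the replicate number, since both replicate 2 libraries were high, and the log2 fold change between treatments was 0.07 ± 0.759. Its postnatal day 3 levels were 13.8 and 13.5 CPM for NS against 10.3 and 13.5 CPM for IUGR. Vegfc (chr8:54077606-54187096, plus strand), the ligand of Flt4, was the only member with both IUGR libraries above both NS libraries at postnatal day 3. The levels were 3.92 and 2.46 CPM for NS against 4.03 and 6.84 CPM for IUGR, with a log2 fold change of 0.77 ± 0.369. Within replicate 1 that log2 ratio was 0.038 and within replicate 2 it was 1.48, so the difference lay almost wholly in the replicate 2 libraries, the pair with Xist. Week 8 levels of Vegfc overlapped, at 4.53 and 2.00 CPM for NS against 3.25 and 1.51 CPM for IUGR.

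Angpt1 (chr15:42424723-42676977, minus strand), the activating ligand of Tek, had postnatal day 3 levels of 60.9 and 64.5 CPM for NS against 67.8 and 47.9 CPM for IUGR. Its week 8 levels were 27.2 and 5.74 CPM for NS against 33.2 and 8.23 CPM for IUGR, low in both replicate 2 libraries. The log2 ratio of replicate 2 over replicate 1 was -2.24 in NS and -2.01 in IUGR, and the log2 fold change of IUGR over NS was 0.41 ± 1.00. Over 86 ribosomal protein genes the median of the same difference, on log2(CPM + 1), was -1.21 in NS and -1.04 in IUGR, beside -2.06 and -1.89 for Angpt1. The part in this result of whatever separates the week 8 replicates was not tested.

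Angpt2 (chr8:18690263-18741562, minus strand), the context-dependent ligand of Tek, had postnatal day 3 levels of 6.60 and 8.34 CPM for NS against 4.25 and 6.39 CPM for IUGR, with the IUGR libraries lower. Its week 8 levels were 8.52 and 0.842 CPM for NS against 3.92 and 1.58 CPM for IUGR. The NS libraries alone spanned the whole range, and the higher of them was the library with the choroid plexus markers. In that library Alas2, the heme synthesis gene of erythroid cells, stood at 72.5 CPM, against 0.891 to 11.7 CPM in the other week 8 libraries, while the other 4 blood cell markers, all globin genes, were at 0 in every library. The 12 meningeal markers summed there to 2476 CPM, against 536 to 1179 CPM. The part of such tissue in the Angpt2 value was not tested. Per kilobase, the ratio of Angpt2 to Angpt1 ran from 0.0761 to 0.162 at postnatal day 3 and from 0.143 to 0.380 at week 8, with overlap.

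**Figure D1:**
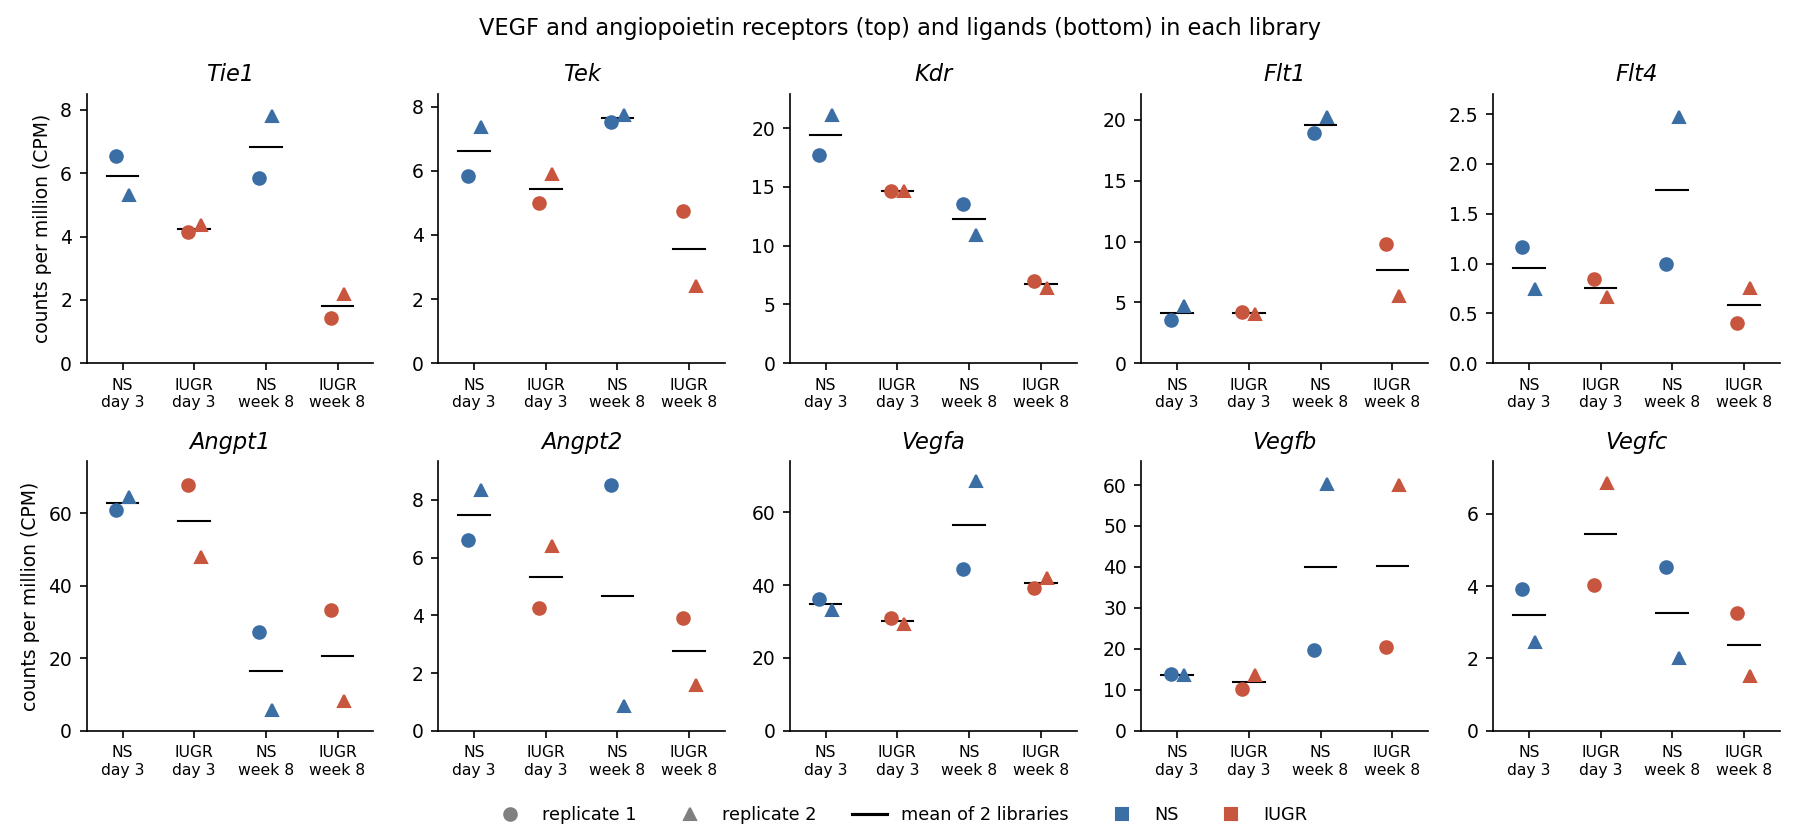
CPM of the 5 receptors (top row) and 5 ligands (bottom row) in each of the 8 libraries, with circles for replicate 1, triangles for replicate 2 and a line at the mean of 2 libraries. The receptors separate by treatment at week 8, for example Tie1 at 1.42 and 2.19 CPM in IUGR against 5.83 and 7.79 CPM in NS, whereas Angpt1 and Vegfb separate by replicate number.

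The question of how prenatal dexamethasone exposure relates to the family was put to a fit over all genes at each age. At week 8, 8 of 10 members had a negative log2 fold change, with a median of -0.75 against 0.0086 over all genes tested. Both IUGR libraries lay below both NS libraries for 6 members, the 5 receptors and Vegfa, and above for 0, where 8.34% and 3.84% of genes with a mean of at least 1 CPM did so. At postnatal day 3, 9 of 10 were negative with a median of -0.24 against 0.010 over all genes. There 5 members (Tie1, Kdr, Angpt2, Vegfa and Vegfb) were lower in both IUGR libraries, against 16.2% of genes, and 1 (Vegfc) was higher, against 20.3%. The level of Vegfb in 1 IUGR library differed from NS of the same replicate number by a log2 ratio of only -0.0029. With TMM-scaled totals, chosen after seeing the data, 6 members were lower at postnatal day 3, with Tek added, and 5 at week 8, without Vegfa. These members were chosen with these contrasts known, and nothing is read from the shares.

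No member passed an adjusted p of 0.05 in edgeR's quasi-likelihood test at either age, where 0% of 15435 genes passed at postnatal day 3 and 0% of 15143 at week 8. At an unadjusted p under 0.05 there were 839 genes at postnatal day 3, with 1 member (Kdr), and 29 at week 8, with 2 members (Tie1 and Flt1). DESeq2 called 65 genes (0.421%) at postnatal day 3 and 1 gene (0.0066%) at week 8, limma voom called 0 at each age, and none of the calls was a member. The difference between the effects at the 2 ages passed for 0% of 15999 genes, with 82 at an unadjusted p under 0.05. On the log2 scale the week 8 effect minus the postnatal day 3 effect was -1.36 ± 0.508 for Tie1, -1.28 ± 0.49 for Flt1 and -0.74 ± 0.542 for Tek, all with an edgeR adjusted p of 1. DESeq2 and limma voom also called 0 genes for it. The separate effects at week 8 and at postnatal day 3 are thus not shown to differ for any member. Leaving out each library in turn moved the week 8 log2 fold changes of the receptors within these ranges. They were -2.22 to -1.58 for Tie1, -1.61 to -0.65 for Tek, -0.96 to -0.64 for Kdr, -1.78 to -0.955 for Flt1 and -2.05 to -0.715 for Flt4. Their negative sign was fixed in advance, because both IUGR libraries lay below both NS libraries for each receptor. Only the size of the change is described by these ranges.

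**Figure D2:**
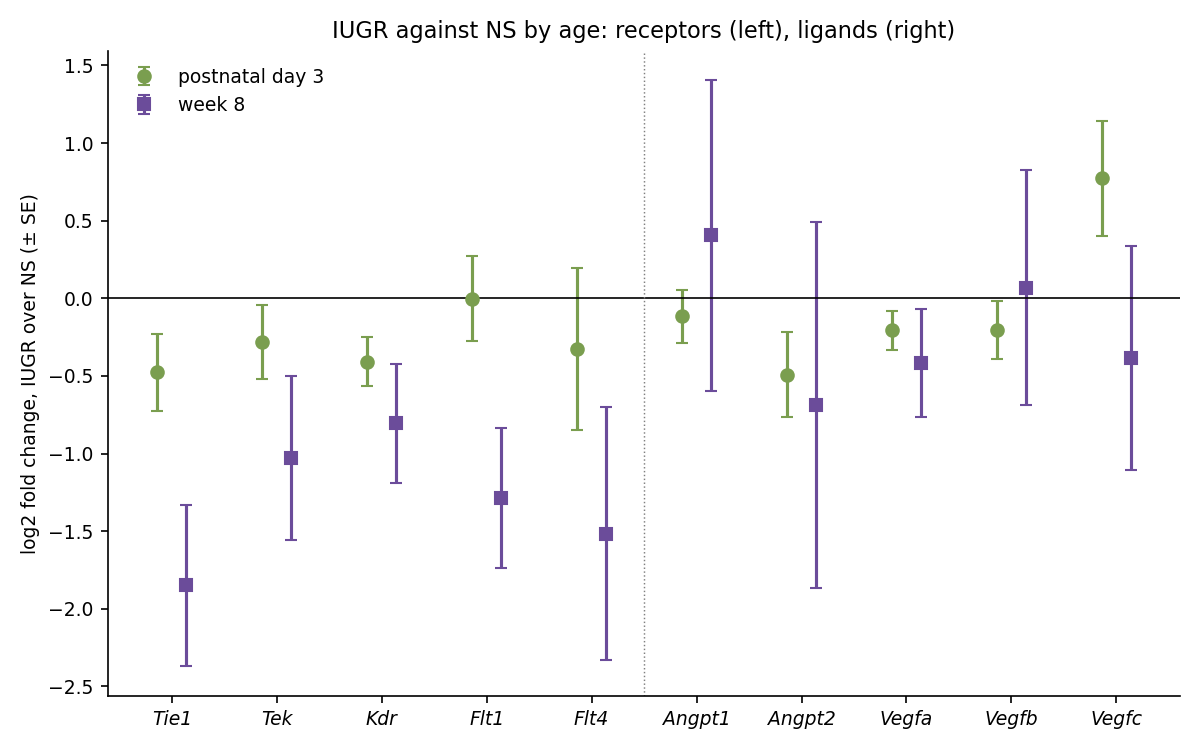
Log2 fold change of IUGR over NS for each member at postnatal day 3 (circles) and week 8 (squares), with edgeR standard errors and 2 libraries per group. The 5 receptors lie between -0.81 and -1.85 at week 8 and between -0.0018 and -0.48 at postnatal day 3. The standard errors of Angpt1, Angpt2, Vegfb and Vegfc span 0 at week 8, and those of Angpt1, Flt1 and Flt4 at postnatal day 3.

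Summed markers of endothelial and mural cells were also lower in the IUGR libraries. In bulk RNA, fewer cells of a type and less RNA per cell cannot be told apart. Summed over 25 endothelial markers, none of them at 0 in any library, the week 8 level was 501 and 606 CPM for NS against 373 and 483 CPM for IUGR, with the IUGR libraries lower. Of these markers 20 of 25 had a negative log2 fold change at week 8, with a median of -0.68. Both IUGR libraries were lower for 10 of 25, against 8.34% of genes with a mean of at least 1 CPM. The postnatal day 3 sum was 378 and 333 CPM for NS against 308 and 269 CPM for IUGR. There 23 of 25 were negative, with a median of -0.33. Both IUGR libraries were lower for 15 of 25 at that age, against 16.2% of genes. The 17 mural markers, of pericytes and vascular smooth muscle, were summed too. At week 8 the sum was 325 and 213 CPM for NS against 168 and 127 CPM for IUGR. At postnatal day 3 it was 197 and 184 CPM against 139 and 142 CPM. Of the 17, 11 were lower and 1 higher in both IUGR libraries at week 8. At postnatal day 3, 10 were lower and 0 higher. None of the endothelial or mural markers was called at either age by edgeR, with 4 and 3 of them at an unadjusted p under 0.05 at postnatal day 3 and 0 and 3 at week 8. DESeq2 called 0 endothelial markers at either age and 1 mural marker, Vtn, lower at postnatal day 3. The 12 meningeal markers summed to 938 to 1147 CPM for NS and 401 to 463 CPM for IUGR at postnatal day 3, where all 12 were lower in both IUGR libraries. Their sums overlapped at week 8, with NS replicate 1 the highest, but all 12 had a negative log2 fold change, with a median of -0.855. All 13 choroid plexus markers were also negative at week 8, with a median of -2.64 and NS replicate 1 again the highest, and DESeq2 called 1 of them, Ttr, lower. DESeq2 called 9 meningeal markers lower at postnatal day 3, and edgeR 0 with 11 at an unadjusted p under 0.05. Markers of lymphatic endothelium and border macrophages summed to 81.5 to 86.0 CPM for NS against 55.5 to 55.7 CPM for IUGR at that age, and DESeq2 called 1 of them, the macrophage receptor gene Mrc1, lower. DESeq2 also called the astrocyte connexin genes Gja1 and Gjb6 and the neuronal glutamate transporter gene Slc17a7 lower there. The part of these cells in the differences of the members, receptors included, was not tested at either age.

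Each receptor was also expressed as a percent of the summed endothelial CPM of its own library. Tie1 made up 1.16% and 1.29% for NS against 0.381% and 0.454% for IUGR at week 8, and 1.73% and 1.59% against 1.34% and 1.62% at postnatal day 3. The week 8 groups stayed apart on this scale and the postnatal day 3 groups overlapped. Flt1 made up 3.77% and 3.35% for NS at week 8 against 2.63% and 1.14% for IUGR, also without overlap, as did Flt4 at 0.199% and 0.408% against 0.109% and 0.156%. Kdr, at 2.71% and 1.81% against 1.89% and 1.32%, overlapped. Tek was at 1.50% and 1.28% against 1.27% and 0.497%, where the higher IUGR library lay just under the lower NS library. The sum gives most weight to abundant markers, and the markers differed in their week 8 change. S1pr1 is an example not picked by smallest p (unadjusted edgeR p of 0.689 at week 8). At 82.8 to 117 CPM at week 8, it had a log2 fold change of IUGR over NS of -0.14 ± 0.334. Cldn5 had -1.29 ± 0.582, and the median of the 25 markers was -0.68. The ratios thus depend on the markers summed, and the part of vessel content in the receptor differences was not tested.

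**Figure D3:**
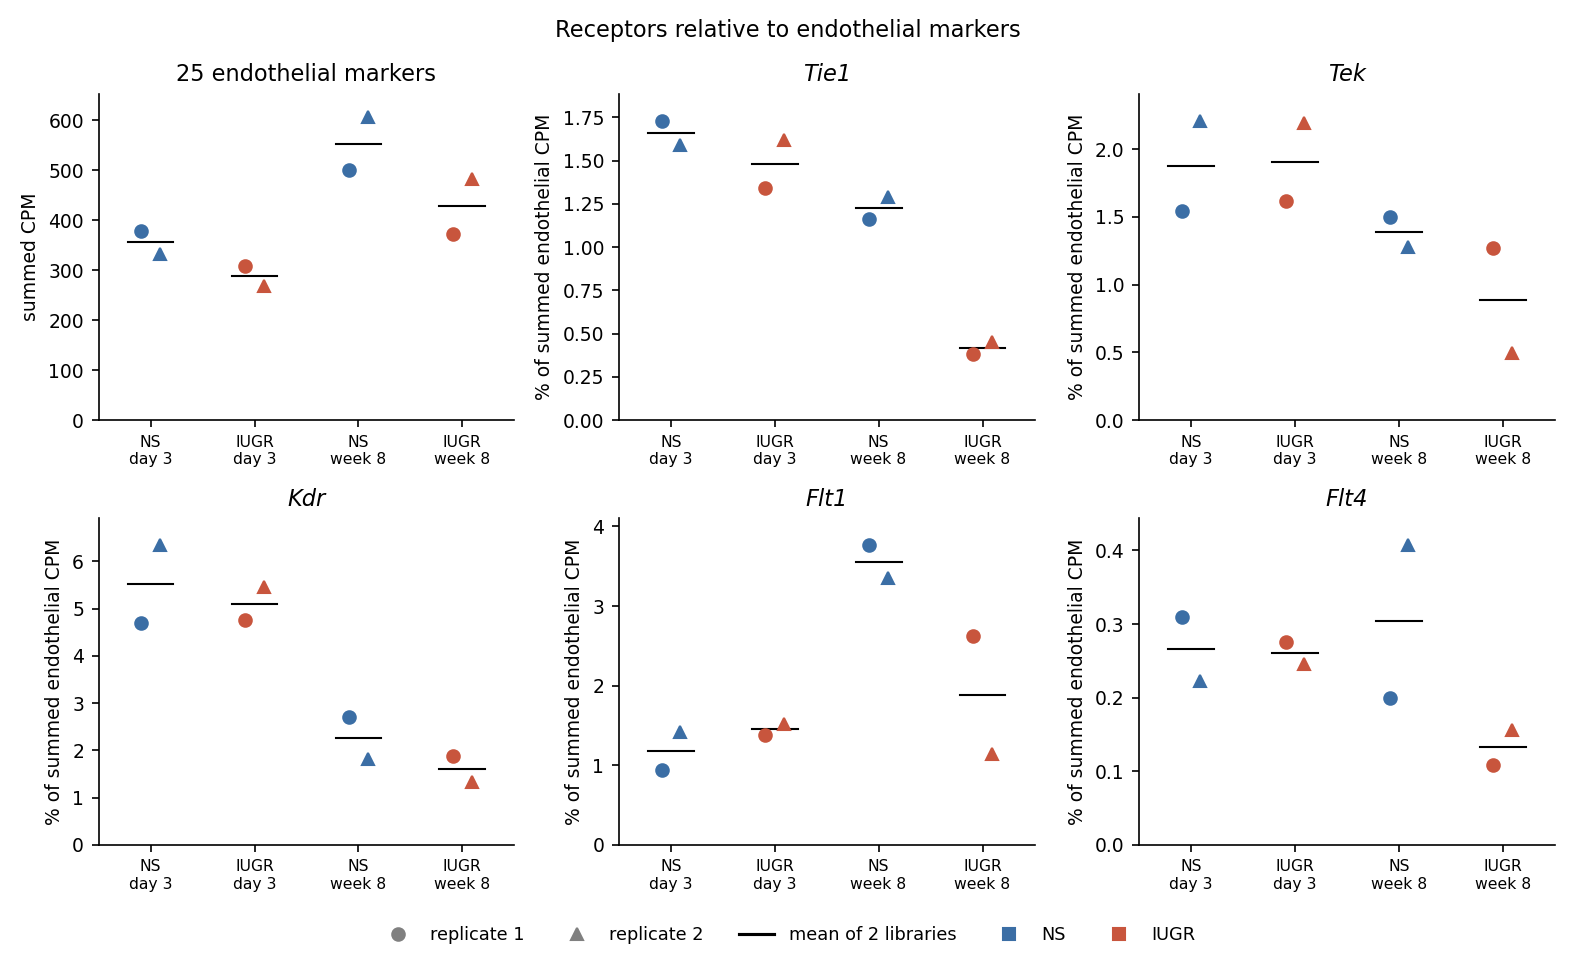
Summed CPM of the 25 endothelial markers and each receptor as a percent of that sum, by library. Tie1 in the week 8 IUGR libraries, at 0.381% and 0.454%, lies below all other libraries, and Kdr overlaps between groups at each age.

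With age, Flt1 rose and Kdr fell in both treatments, but their changes were not compared by a test. The replicate 2 libraries at postnatal day 3 held 4998 and 5130 Xist counts, against 1 to 50 in the week 8 libraries. The part of this difference in the age changes was not tested. Flt1 rose from postnatal day 3 to week 8 in NS by 2.26 ± 0.358 on the log2 scale, or 4.79-fold, with an edgeR adjusted p of 0.0132, and was the only member called there, where 14.1% of 15999 genes were called and 7.70% were called higher. In IUGR its log2 change was 0.98 ± 0.349 with an edgeR adjusted p of 0.100. The NS call was lost without NS postnatal day 3 replicate 1 (2.06, adjusted p = 0.139) or replicate 2 (2.47, adjusted p = 0.107), each of which leaves 1 NS library at that age, assumed to vary like the other groups. In IUGR, Kdr fell by 1.02 ± 0.24 on the log2 scale, or 2.03-fold, with an edgeR adjusted p of 0.0332. It was the only member called in this edgeR fit, where 16.8% of genes were called and 7.48% were called lower. That call was lost when any 1 of the 4 postnatal day 3 libraries or either IUGR week 8 library was left out, with log2 changes of -0.96 to -1.10 and adjusted p of 0.0665 to 0.187. DESeq2 with a replicate block did not call Kdr in IUGR either (-0.862, adjusted p = 0.0766). In NS the Kdr change was -0.64 ± 0.237, with an edgeR adjusted p of 0.120.

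Per kilobase, the ratio of Flt1 to Kdr was 0.175 and 0.195 for NS against 0.251 and 0.241 for IUGR at postnatal day 3. By week 8 it was 1.21 and 1.61 for NS against 1.21 and 0.747 for IUGR. All 4 week 8 libraries were above all 4 postnatal day 3 libraries in this ratio, and the NS and IUGR values overlapped at week 8 but not at postnatal day 3. Flt1 thus stood below Kdr in every postnatal day 3 library and above it in 3 of the 4 week 8 libraries, IUGR replicate 2 being the exception.

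**Figure D4:**
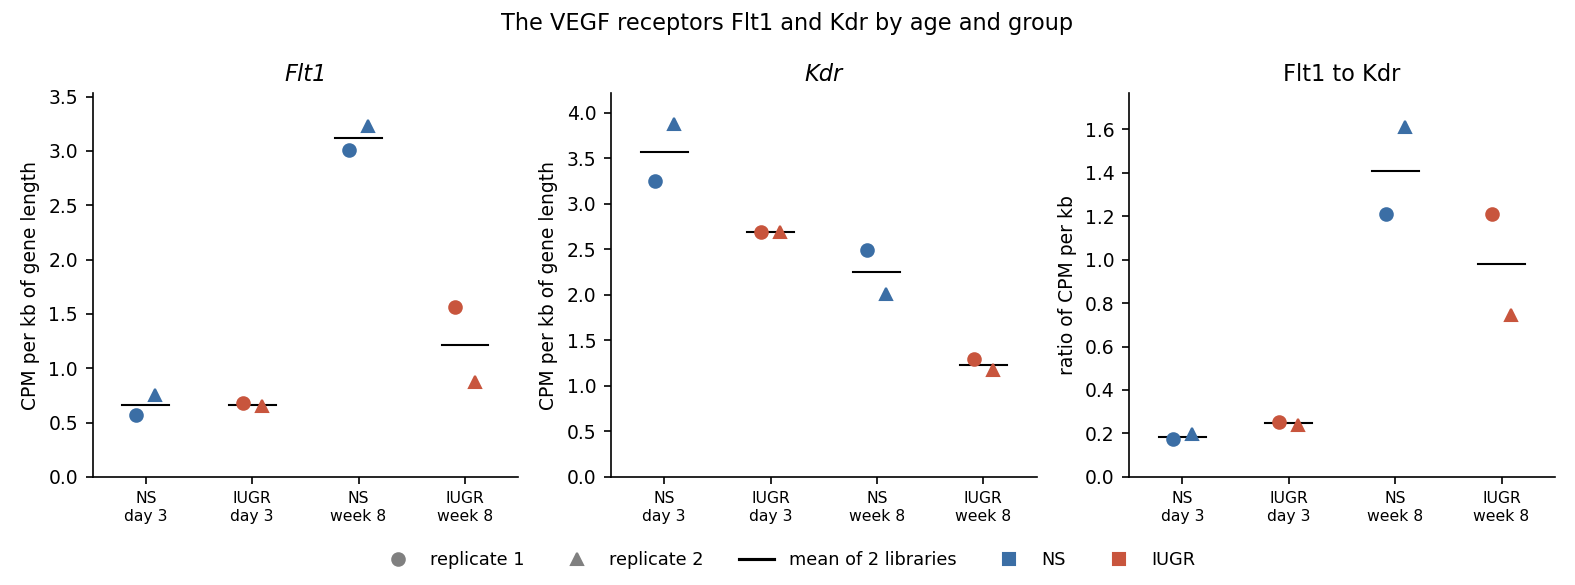
CPM per kilobase of Flt1 and Kdr and the ratio of the first to the second in each library. The ratio lies between 0.175 and 0.251 at postnatal day 3 and between 0.747 and 1.61 at week 8.

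All 4 week 8 libraries lay below all 4 postnatal day 3 libraries for 2 members, Angpt1 and Kdr, and above them for 3, Vegfa, Vegfb and Flt1. Among genes with a mean of at least 1 CPM, 27.0% lay below and 22.1% above in this way. The age changes of the ligands in NS were -1.92 ± 0.839 for Angpt1, 0.74 ± 0.255 for Vegfa and 1.58 ± 0.656 for Vegfb. None of them was called by edgeR in the fit without a replicate block. With the block, edgeR called Angpt1 in NS (-1.36, adjusted p = 0.00488), among 5049 genes. In IUGR it also called Tie1, Angpt1, Vegfb and Flt1, among 5550 genes. The block was set within each age, so these age changes are those of the replicate 1 level. Leaving out NS week 8 replicate 1, the library with the choroid plexus markers, left only replicate 2 for NS at that age. The changes in NS were then 2.31 for Flt1, -3.42 for Angpt1, -3.11 for Angpt2, 1.01 for Vegfa and 2.17 for Vegfb. They include the difference between the NS week 8 replicates. As log2 ratios of replicate 2 over replicate 1, it was 0.10 for Flt1, -2.24 for Angpt1, -3.34 for Angpt2, 0.62 for Vegfa and 1.61 for Vegfb. Leaving out replicate 2 instead gave 0.199 for Angpt2. In IUGR the changes were -1.38 ± 0.825 for Angpt1, 0.53 ± 0.254 for Vegfa and 1.87 ± 0.662 for Vegfb. The Tie1 change was 0.23 ± 0.351 in NS and -1.12 ± 0.368 in IUGR, with edgeR adjusted p of 0.680 and 0.0823. In IUGR DESeq2, which called 28.6% of all genes, also called Tie1 (-1.12, adjusted p = 0.0403) and Vegfb (1.88, adjusted p = 0.0223). Vegfc and Flt4 had changes of 0.05 ± 0.594 and 0.91 ± 0.65 in NS and -1.08 ± 0.597 and -0.27 ± 0.686 in IUGR.

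Levels were ordered per kilobase of gene length. At postnatal day 3 in NS Angpt1 was first, at 14.1 to 14.9 CPM per kilobase, followed by Vegfb at 10.6 to 10.8, Vegfa at 7.93 to 8.70 and Kdr at 3.26 to 3.88, each apart from the next. Angpt2, Vegfc, Tie1 and Tek followed at 1.24 to 2.34 CPM per kilobase and overlapped their neighbours, with Flt1 at 0.570 to 0.755 and Flt4 at 0.127 to 0.200 last. In NS at week 8 Vegfb, at 15.4 to 47.0 CPM per kilobase, overlapped Vegfa at 10.7 to 16.4. Angpt1 at 1.33 to 6.30 overlapped Flt1 at 3.01 to 3.23, Kdr followed at 2.01 to 2.49, and the other 5 members overlapped their neighbours. In IUGR Angpt1 was also first at postnatal day 3, at 11.1 to 15.7 CPM per kilobase, and Vegfb first at week 8, at 16.0 to 46.9. Vegfc there stood above Kdr in mean at both ages, with overlap.

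Other genes of the pathway, from a list of 24 that excludes the members, were tested in the same fits. None was called by edgeR between IUGR and NS at either age, with 5 and 1 at an unadjusted p under 0.05 at postnatal day 3 and week 8, and DESeq2 called 0. Of those tested, 16 of 23 were negative at postnatal day 3, with a median log2 fold change of -0.26, and 17 of 22 at week 8, with a median of -0.21. Dab2, an endocytic adaptor, had the smallest p at postnatal day 3, at 23.9 and 23.5 CPM for NS against 15.4 and 13.1 CPM for IUGR and a log2 fold change of -0.74 ± 0.156. Clec14a, an endothelial surface lectin, had -0.95 ± 0.213. At week 8 the smallest p belonged to Ptprb, the vascular phosphatase that acts on Tek, at 30.2 and 29.0 CPM for NS against 14.3 and 10.3 CPM for IUGR, with -1.20 ± 0.367. Cdh5, the cadherin of endothelial junctions, had -1.32 ± 0.561.

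With age, edgeR called 14.1% of all genes in NS and 16.8% in IUGR, and the edgeR counts that follow stand beside these shares. Of 23 tested genes of the same list, 1 was called higher and 1 lower in NS. Ptprb rose by 1.65 ± 0.253 on the log2 scale (edgeR adjusted p = 0.0123) and Cd93, an endothelial adhesion receptor, fell by 1.20 ± 0.277 (edgeR adjusted p = 0.0359). In IUGR 2 were called lower, Cd93, which fell by 1.68 ± 0.284, and Efnb2, an ephrin ligand of arteries, which fell by 1.39 ± 0.325. Of 20 genes of hypoxia signalling, the pathway that induces Vegfa, edgeR called 6 higher with age in each treatment and 0 lower, among them Ndrg1 (1.04 ± 0.191 in NS and 1.04 ± 0.191 in IUGR) and the glucose transporter gene Slc2a1 (1.81 ± 0.411 in NS). DESeq2, which called 25.7% of all genes with age in NS and 28.6% in IUGR, called 6 of them higher and 1 lower in NS and 7 higher and 1 lower in IUGR. The lower one was Egln3, a prolyl hydroxylase gene that acts on hypoxia-inducible factors. Between IUGR and NS the hypoxia genes had a median log2 fold change of 0.09 at week 8, with 0 called by edgeR or DESeq2 and 0 at an unadjusted p under 0.05. The median was -0.12 at postnatal day 3, where 13 of 19 tested were negative, again with 0 called by edgeR or DESeq2. There 3 of them, Ndrg1 and Epas1 (negative) and Kdm3a (positive), had an unadjusted edgeR p under 0.05, and of 20 genes 7 were lower and 6 higher in both IUGR libraries. Of 15 tested genes of sprouting tip cells and vascular Notch signalling, the apelin receptor gene Aplnr (from 9.97 and 8.85 CPM to 0.384 and 0.211 CPM) fell by 4.96 ± 0.429 and Cxcr4 by 2.55 ± 0.429 in NS, and Apln rose by 2.43 ± 0.362 and Unc5b, a netrin receptor gene, by 2.04 ± 0.285. Of the 25 endothelial markers, edgeR called 5 higher with age in NS and 5 in IUGR and 0 lower, beside 14.1% and 16.8% of all genes. Slc2a1 is on both the hypoxia and the endothelial list and is counted in each. DESeq2 called 6 higher and 1 lower in NS (Itm2a), and 7 higher and 3 lower in IUGR (Cldn5, Ets1 and Slco1c1).

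The genes closest to 4 members in profile were found by the root mean square distance between centred log2(CPM + 1) values over the 8 libraries, among 11558 genes with a mean of at least 5 CPM. These 4 members were picked after their values were seen. Closest to Tie1 were Adamts10 (0.193), Col15a1 (0.296) and Crtap (0.323). Mcam (0.193), Ptprb (0.235) and Acta2 (0.245) were closest to Flt1, and Col16a1 (0.182), Fam129b (0.191) and Wtip (0.195) to Kdr. Nearest to Angpt1 were the ribosomal protein genes Rpl7 (0.156), Rpl36a (0.167) and Rpl35 (0.167).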

How the data were processed

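Total RNA was depleted of ribosomal RNA, primed at random and sequenced in paired ends, per the labels. The authors' deposited values are raw read counts for 24421 gene symbols, in 1 table for each age. Tools in the submitters' processing notes are featureCounts 1.6.1, HISAT2 2.1.0, cutadapt 1.16, SAMtools 1.9 and DESeq2 1.26.0, with build mm10. Their roles, the strandedness and the annotation release were not given in the sources used here, so reads of overlapping or antisense genes cannot be told apart. The members, lists and tests were chosen with earlier results of these data known.

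CPM is the raw count over the library total, and per-kilobase values use the lengths in the count tables. A count of 0 allows up to 3 counts, 0.158 to 0.230 CPM per library, for counting error only. Counts were fitted over all genes with edgeR 4.0.16 (R 4.3.3), with TMM scaling, the default expression filter and the quasi-likelihood test, with Benjamini-Hochberg adjustment and a threshold of 0.05. IUGR was compared with NS on the 4 libraries of each age, and ages and the interaction on all 8 libraries. The script was tested on simulated data. Replicates differed beyond sampling noise, far more at week 8. The chi-square per degree of freedom was 16.0 for NS and 18.8 for IUGR at postnatal day 3, and 317.6 and 248.8 at week 8. The age and interaction fits assume 1 spread for all groups, and their standard errors and p-values rest on that. All members are named. From each other list of the pathway, up to 4 called genes per comparison were eligible by smallest p, or the 2 smallest where none was called, and not all are printed. Alternatives were RLE and upper-quartile scaling, 2 other filters, DESeq2 1.42.0, limma 3.58.1 voom, a replicate block, all 8 libraries in 1 model, and leaving out each library.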

Additional observations from a re-analysis of the deposited data

Results flagged for a closer look

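The Tek libraries were ordered in opposite directions with age in NS and IUGR, by narrow gaps between the closest libraries. Both NS libraries at week 8 lay above both at postnatal day 3 (7.52 and 7.74 CPM against 5.85 and 7.37 CPM). Both IUGR libraries lay below (4.73 and 2.40 CPM against 4.99 and 5.90 CPM). The exact binomial intervals of the closest libraries, for counting error only, overlapped in each treatment. In NS they were 6.11 to 9.17 CPM (week 8 replicate 1) and 6.15 to 8.75 CPM (postnatal day 3 replicate 2). In IUGR they were 3.69 to 5.98 CPM (week 8 replicate 1) and 4.00 to 6.15 CPM (postnatal day 3 replicate 1). The log2 ratio of week 8 over postnatal day 3 group means in IUGR was -0.61. The interaction, which tests this difference, was -0.74 ± 0.542 with an edgeR adjusted p of 1, so the difference did not pass the test. The cause was not tested.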

How the results depend on the processing

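The design has 2 libraries a group, which limits every comparison; members with few counts, such as Flt4, are the least precise. Between IUGR and NS, and for the interaction, 0 members were called under every alternative run, while the calls over all genes ranged from 0 to 65 at postnatal day 3 (26 with no filter, 65 with DESeq2), from 0 to 3 at week 8 and stayed at 0 for the interaction. The labels do not say that a replicate number marks a shared animal, litter or batch. Replicate differences of NS and IUGR correlated at -0.0652 at postnatal day 3 and 0.818 at week 8. The replicate block was set within each age, so age changes fitted with it are those of the replicate 1 level. With age in IUGR, DESeq2 with this block called Tie1, Angpt1 and Vegfb but not Kdr. With age, members called in NS numbered 1, 2 with the replicate block (Flt1 and Angpt1, the latter at -1.36 with an edgeR adjusted p of 0.00488), 2 with DESeq2 and the replicate block, and 0 to 5 leaving out 1 library. In IUGR they numbered 1, 3 with DESeq2, 5 with the replicate block (Kdr, Tie1, Angpt1, Vegfb and Flt1), 3 with DESeq2 and the replicate block, and 0 to 2 leaving out 1 library. Genes called went from 2263 to 4116 (DESeq2), 5049 (block) and 51 to 3801 (1 library left out) in NS, and from 2691 to 4581, 5550 and 92 to 4069 in IUGR.

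Log2 fold changes that changed sign are these. For IUGR over NS at postnatal day 3, Flt1 was 0.000438 with no filter, 0.0104 with the replicate block, 0.00083 with all 8 libraries and 0.0042 with DESeq2 and the block; leaving out 1 library, Flt1 ran from -0.18 to 0.21, Flt4 from -0.63 to 0.0285 and Angpt1 from -0.42 to 0.12. At week 8 Angpt2 was 0.12 with limma voom, and leaving out 1 library gave Angpt2 -1.57 to 1.77, Vegfb -0.93 to 1.09, Vegfc -1.05 to 0.32 and Angpt1 -0.94 to 1.92. In the interaction Angpt2 was 0.67 with voom, 0.25 with the block and 0.35 with DESeq2 and the block, and leaving out 1 library gave Angpt2 -1.05 to 2.27, Vegfb -0.70 to 1.33, Angpt1 -0.78 to 2.05 and Vegfa -0.47 to 0.16. With age in NS, Vegfc was -0.00553 with upper-quartile scaling and -0.057 with voom, and with the block Tie1 was -0.10, Angpt2 0.11 and Flt4 -0.047, or -0.10, 0.074 and -0.034 with DESeq2. Leaving out 1 library there gave Vegfc -0.64 to 0.52, Tie1 -0.0107 to 0.42 and Angpt2 -3.11 to 0.20. With age in IUGR, Angpt2 was 0.36 with the block and 0.42 with DESeq2 and the block, and Flt4 ran from -0.79 to 0.10 leaving out 1 library. The cause was not tested.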
